A study of Myotis pilosus with 4 samples.

Results

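Small RNA reads whose 5′ end lay away from the listed first base of a conserved miRNA were examined in 4 libraries of the bat Myotis ricketti (Myotis pilosus in the sample labels). A tag, that is a distinct sequence with its read count, was taken as shifted when it began with bases 2 to 17 of a listed mature sequence (1 base lost), with bases 3 to 18 (2 bases lost), or with 1 base followed by bases 1 to 16 (1 base gained). A tag that began with bases 1 to 16 was taken as unshifted. Tags that fit several miRNAs were left out. Of the 2315110 distinct tags, 8405 were shifted, and these held 1722329 of the 45147213 clean reads. The unshifted tags numbered 20642 and held 13623404 reads. Of the 119 conserved miRNAs, 111 had counted tags and 108 had at least 1 shifted read. Only miR-744-3p, miR-7b-3p and miR-7g-3p, named after their values were seen, had counted tags and no shifted read. The other 8 were pairs with the same first bases, and they are described jointly near the end.

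The libraries were HB (brain of hibernating bats), AB (brain of active bats), HA (adipose tissue of hibernating bats) and AA (adipose tissue of active bats), and the study describes the adipose tissue as intra-abdominal white adipose tissue (WAT). The animals were wild adults of no stated strain that received no treatment, and the sample labels call the active state aroused. Each library was made from the pooled RNA of 3 bats, so there was 1 library per group, no spread between animals was available and no p-value was computed. Active bats were caught in autumn and hibernating bats in early spring, hence state and season cannot be told apart. Intervals below cover counting error only, since each group had 1 library. Copies made by PCR are not independent molecules, so the intervals may be too narrow even for counting error. The depth ranged from 10007650 to 12159756 clean reads. The tissue labels were checked with marker miRNAs, counted as reads identical to the listed sequence. The 3 neuronal miRNAs summed to 37565 and 51489 reads per 1000000 clean reads (RPM) in HB and AB, against 34.7 and 30.9 in HA and AA. The 3 skeletal muscle miRNAs summed to 17409 and 18253 RPM in HA and AA, against 1948 and 1605 in HB and AB. Most of this was miR-1-3p, at 16998 and 17687 RPM in HA and AA, whereas miR-133-3p was at 7.28 and 28.9 RPM there. The part of the muscle miRNAs in the tissue differences below was not tested. Whether a lower level reflects fewer cells of a type or less RNA per cell cannot be told apart in whole tissue.

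A miRNA is cut from a hairpin by the nucleases Drosha and Dicer, and these cuts set the 5′ ends of the 5p and 3p arms, respectively. Bases 2 to 8, the seed, pair with the target mRNA, so a miRNA with a shifted 5′ end (a 5′ isomiR) carries another seed. A lost base moves the seed towards the 3′ end, whereas a gained base moves it towards the 5′ end.

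The tags below had the most reads at each start and carry the main shifts. They are written 5′ to 3′ in DNA letters as deposited, with the seed in capitals. The first set shows miRNAs whose shifted reads had gained a base.
miR-101-3p, unshifted: tACAGTACtgtgataactgaa
miR-101-3p, 1 base gained: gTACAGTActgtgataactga
miR-140-3p, unshifted: aCCACAGGgtagaaccacgga
miR-140-3p, 1 base gained: tACCACAGggtagaaccacgg
miR-744-5p, unshifted: gCGGGGCTagggctaacagcat
miR-744-5p, 1 base gained: tGCGGGGCtagggctaacagcat
miR-9-3p, unshifted: tAAAGCTAgataaccgaaagt
miR-9-3p, 1 base gained: aTAAAGCTagataaccgaaagt
miR-30b-3p, unshifted: tGGGAGAAggctgtttactc
miR-30b-3p, 1 base gained: cTGGGAGAaggctgtttact

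The second set shows miRNAs with lost bases, and miR-199-3p, which had both kinds.
miR-199-3p, unshifted: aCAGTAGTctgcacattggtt
miR-199-3p, 1 base lost: cAGTAGTCtgcacattggtt
miR-199-3p, 1 base gained: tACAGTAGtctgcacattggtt
miR-139-3p, unshifted: tGGAGACGcggccctgttgga
miR-139-3p, 1 base lost: gGAGACGCggccctgttggagt
miR-28-5p, unshifted: cAAGGAGCtcacagtctattgac
miR-28-5p, 1 base lost: aAGGAGCTcacagtctattga
miR-142-5p, unshifted: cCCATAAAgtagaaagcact
miR-142-5p, 2 bases lost: cATAAAGTagaaagcacta
miR-7c-3p, unshifted: cAACAAATcacagtctgccata
miR-7c-3p, 1 base lost: aACAAATCacagtctgccata

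Shifted reads made up 10.5% of the shifted plus unshifted reads in HB (exact Clopper-Pearson 95% interval 10.52 to 10.58%) and 10.3% in AB (10.31 to 10.38%), against 12.5% in HA (12.45 to 12.53%) and 11.6% (11.59 to 11.64%) in AA. The pooled share was thus lowest in the brain libraries and highest in HA, over a narrow range. Of all clean reads they were 3.55% in HB and 3.44% in AB, against 3.20% in HA and 5.05% in AA. The typical miRNA had a lower share than the pool. The median over miRNAs with 100 or more reads was 3.67% in HB (78 miRNAs) and 3.53% in AB (78), against 3.96% in HA (69) and 3.11% in AA (69). In each library the miRNAs ranged from 0% to over 99%. In HB, 16 of 78 miRNAs had a share under 1%, 39 a share of 1 to 10%, and 23 a share over 10%. In AA these numbers were 15, 30 and 24 of 69.

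Reads with 1 gained base were the largest kind, with 1324746 reads (76.9% of the shifted reads) on 3936 tags. Tags with 1 lost base held 370688 reads (21.5%) and tags with 2 lost bases 26895 (1.56%). The gained kind took 83.6% of the shifted reads in HB and 85.9% in AB, against 79.2% in HA and 65.1% in AA, and the 1 lost kind 14.7%, 12.7%, 19.3% and 33.3%. The gained reads came from few miRNAs, however. Among the 90 miRNAs with 10 or more shifted reads, 1 lost base was the commonest kind for 57, 1 gained base for 26 and 2 lost bases for 7. Of the shifted tags, 45.1% had a single read over the 4 libraries, and 957 tags were found in all 4 libraries. Reads aligned on bases 5 to 18, with the pairs joined, showed a steep fall on both sides of the listed start. In HB, 91.2% of these reads began at the listed base, 7.04% began 1 base upstream and 1.23% 1 base downstream, against 90.2%, 6.20% and 3.24% in AA.

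**Figure D1:**
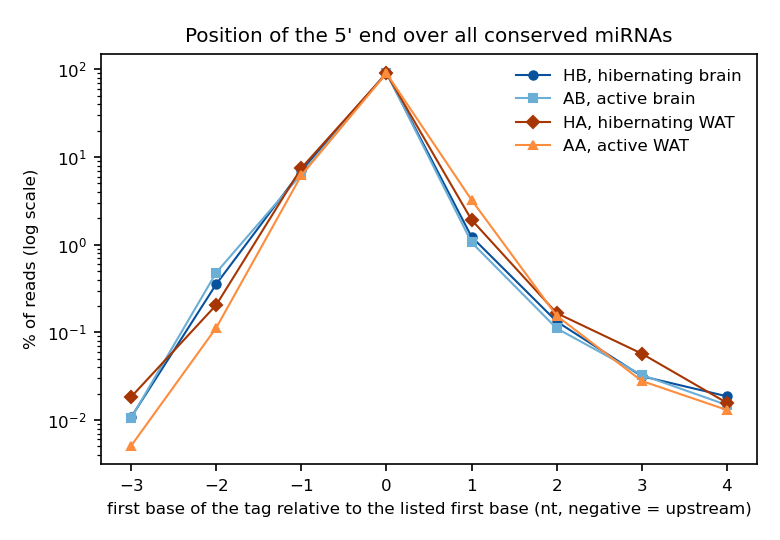
Position of the first base of each read relative to the listed first base, in nt on the x axis, and the percentage of reads on a log y axis, for the 4 libraries and all conserved miRNAs with the pairs joined. In each library over 90% of the reads began at the listed base, and the 1 base upstream position held more than the 1 base downstream position.

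A few miRNAs accounted for most shifted reads. miR-101-3p held 57.3% of the shifted reads in HB and 55.5% in AB, against 33.9% in HA and 22.2% in AA. miR-199-3p led in AA with 44.9% of the shifted reads and held 21.1% in HA. miR-140-3p held 8.36% in HB and 12.9% in AB, against 30.5% in HA and 17.3% in AA. Without these 3 miRNAs the pooled share was 4.38% in HB and 3.85% in AB, against 2.77% in HA and 2.75% in AA, so that the brain libraries then had the higher share. Without miR-101-3p alone, the pooled share was 5.28% in HB and AB, against 9.47% in HA and 9.91% in AA. Without miR-101-3p and miR-199-3p it was 5.23% in HB and 5.21% in AB, against 7.69% in HA and 5.49% in AA. The order of the tissues in the pooled share thus turned only when miR-140-3p was left out as well. Leaving out miR-199-3p or miR-140-3p alone was not tested.

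**Figure D2:**
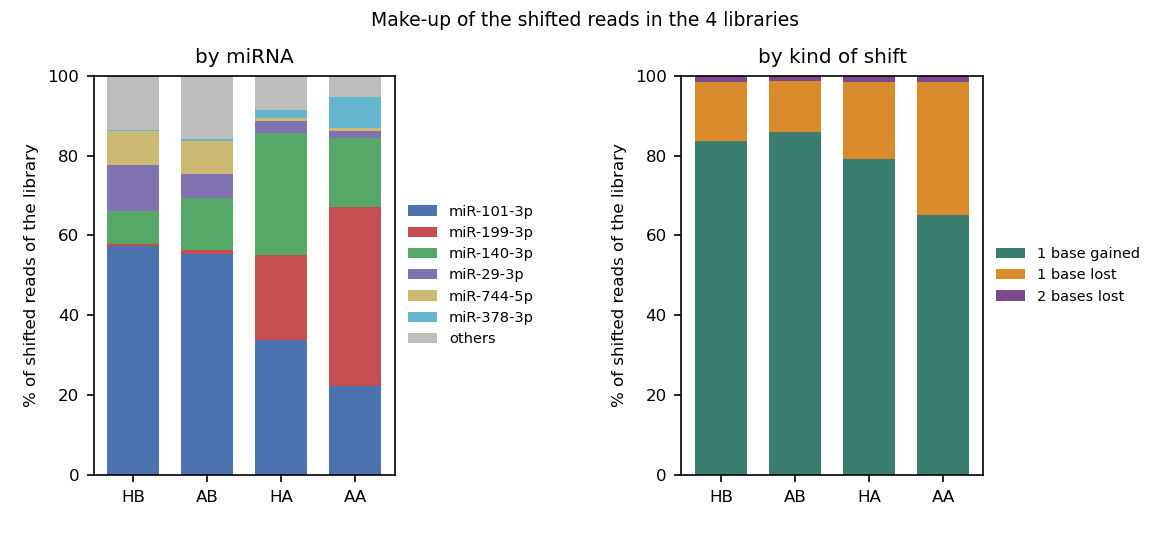
Make-up of the shifted reads of each library in percent (y axis) by miRNA (left) and by kind of shift (right). miR-101-3p filled over 55% of the bar in HB and AB, miR-199-3p was the largest block in AA, and reads with 1 gained base were the largest kind in each library.

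miR-101-3p is known for repressing the histone methyltransferase EZH2. Of its shifted plus unshifted reads, 41.4% were shifted in HB and 44.9% in AB, against 32.9% in HA and 29.1% in AA, on 380535 to 597666 reads per library. Both brain libraries lay above both WAT libraries. The gained base was G in 99.7% of the 680512 gained reads, and the lost kinds stayed under 1% of the reads of the miRNA in each library. The log2 odds ratio, that is the log2 ratio of shifted per unshifted reads between libraries, was -0.21 for HB to AB (95% counting interval -0.22 to -0.20) and 0.26 for HA to AA (0.24 to 0.27). The sign thus differed between the tissues. Brain to WAT, the log2 odds ratio was 0.53 for HB to HA (0.51 to 0.54) and 0.99 for AB to AA (0.97 to 1.0001), both larger in size than the values between states.

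miR-140-3p is the partner of miR-140-5p, a miRNA of cartilage. Its shifted share was 24.7% in HB and 32.0% in AB, against 48.1% in HA and 50.5% in AA, on 138386 to 233959 reads per library. Here both WAT libraries lay above both brain libraries, the opposite order to that of miR-101-3p. The gained base was T in 99.7% of the gained reads. Counted in RPM, the unshifted form was nearly level, at 9023 in HB and 9398 in AB, against 10511 in HA and 8574 in AA. The shifted form was at 2967 in HB and 4430 in AB, against 9759 in HA and 8745 in AA. Per clean read, the tissue difference thus lay in the shifted form. With the pairs left out, conserved miRNAs held 4092594 of 12159756 clean reads in HB and 3326109 of 10007650 in AB. They held 2953443 of 11542470 in HA and 4973587 of 11437337 in AA, so levels per miRNA read would differ from those in RPM. The log2 odds ratio was -1.497 for HB to HA (-1.52 to -1.48), -1.11 for AB to AA (-1.13 to -1.09) and -0.52 for HB to AB (-0.54 to -0.50). With 1 lost base alone, the log2 odds ratio of HB to HA was 0.30, so the tissue difference was one of the gained form.

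miR-199-3p is a miRNA of stromal and muscle cells and had both kinds of shift. One lost base made up 9.53% of its reads in HB and 11.1% in AB, against 9.40% in HA and 11.8% in AA. The gained base, T in 99.6% of the gained reads, made up 4.90% in HB and 5.92% in AB, against 9.0% in HA and 12.2% in AA. The lost form was therefore similar over the libraries, whereas the gained form was higher in both WAT libraries. In total 14.8% of its reads were shifted in HB and 17.4% in AB, against 18.7% in HA and 24.2% in AA. Its reads were far fewer in brain, with 16659 in HB and 17753 in AB against 417496 in HA and 1072011 in AA.

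miR-29-3p, known for repressing collagen mRNAs, had the most reads of the counted miRNAs in HB, AB and HA. Its shifted share was low, at 4.19% in HB and 3.37% in AB, against 2.42% in HA and 2.01% in AA. Its 91811 shifted reads over the 4 libraries were nevertheless the most after those of the 3 miRNAs above, and its gained base was C in 98.2% of the gained reads.

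In 8 miRNAs a shifted start had more reads over the 4 libraries than the listed start, namely miR-744-5p, miR-30b-3p, miR-9-3p, miR-383-5p, miR-221-3p, miR-285-2-5p, miR-28-5p and miR-7f-3p (the last with 131 aligned reads, and outside the naming rule). Over all starts from 3 bases upstream to 4 downstream, 91 of 99 entries with 100 or more reads had the listed start as the commonest. As background, human annotation places the first base of miR-744-5p, miR-9-3p, miR-140-3p, miR-142-3p and miR-133 at the start called gained here, and that of miR-28-5p and miR-383-5p at the start called lost. These are examples. No set of annotated sequences was compared here, so shifted starts of other miRNAs may be annotated ones too.

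miR-744-5p had gained a T in 99.8% of its gained reads, and its shifted share was 97.8% in HB and 97.4% in AB, against 95.1% in HA and 96.7% in AA. miR-30b-3p had gained a C in 99.8%, with shares of 94.8%, 95.6%, 94.0% and 92.1% in HB, AB, HA and AA. miR-28-5p had lost 1 base in nearly all reads, with shares of 99.4%, 99.7%, 99.8% and 99.6%, so that 1 to 4 reads per library began at the listed base. These 3 miRNAs had a narrow range over the libraries, the widest being that of miR-30b-3p.

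miR-9-3p, the partner of the neuronal miR-9-5p, was split nearly evenly. Its shifted share was 60.4% in HB (59.7 to 61.1%) and 56.8% in AB (56.1 to 57.4%), on 18834 and 20527 reads, and the gained base was A in 99.8% of the gained reads. In HA and AA it had 32 and 29 reads, too few for a share to be compared. miR-7c-3p was also divided between starts, with shares of 55.3% in HB and 48.6% in AB, against 57.4% in HA and 44.2% in AA, mostly from 1 lost base. Its intervals in HA (49.2 to 65.3%) and AA (38.5 to 50.01%) overlapped at their ends. The log2 odds ratio was 0.77 for HA to AA (0.20 to 1.33) and 0.39 for HB to AB (0.066 to 0.71), so these counting intervals excluded 0.

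miR-221-3p showed where the counting window ends. Within the window its share was 99.1% in HB and 99.0% in AB, against 87.9% in HA and 97.96% in AA. Its commonest start lay 2 bases upstream, outside the counted shifts, and held 94.0% of its 56972 aligned reads. The tag with the most reads at that start had 9822 reads in HB and 12010 in AB, against 2258 in HA and 2330 in AA.
miR-221-3p, 1 base gained: gCTACATTgtctgctgggttt
miR-221-3p, 2 bases upstream: aGCTACATtgtctgctgggttt
The listed start held only 13 reads in HB and 16 in AB, against 29 in HA and 6 in AA, and the differences of miR-221-3p below rest on these few reads.

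Lost bases led in several other miRNAs. miR-383-5p, a miRNA with few reads outside brain here, had lost 1 base in 56.5% of its reads in HB and 71.2% in AB, and 2 bases in 11.98% and 11.2%. miR-285-2-5p had a share of 79.9% in HB (75.4 to 83.9%) and 71.97% in AB (66.1 to 77.3%). miR-142-5p, a miRNA of blood cells, had lost 2 bases in 32.1% of its reads in HB and 27.8% in AB, against 41.7% in HA and 46.8% in AA, while 1 lost base stayed at 1.76 to 3.24%. Its shifted reads thus began mostly 2 bases downstream of the listed start, with few at the position between. Its partner miR-142-3p had 229 reads in AA, of which 14.8% were shifted (10.5 to 20.1%), and under 100 reads in each of the other libraries. miR-10-5p, which lies in the HOX gene clusters, had a share of 35.9% in AB (28.1 to 44.2%), whereas it was 22.7% in HA (21.7 to 23.7%) and, in AA, 19.9% (18.6 to 21.3%), nearly all from 1 lost base. In HB it had 83 reads.

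Muscle miR-133-3p had a share of 41.7% in HA (36.8 to 46.7%) and 45.2% in AA (42.5 to 47.9%), and these intervals overlapped. Its gained base was T in 99.5% of the gained reads. It had 95 reads in HB and 89 in AB, under the minimum of 100. The other muscle miRNAs had low shares. In the muscle list, the median share was 1.68% in HA and 1.498% in AA over 3 miRNAs.

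Other abundant miRNAs had hardly any shifted reads. miR-219-3p, the partner of the oligodendrocyte miR-219-5p, had a share of 0.107% in HB and 0.0784% in AB, on 69274 and 88004 reads. miR-100-5p had a share of 0.246% in HB and 0.200% in AB, against 0.209% in HA and 0.183% in AA, on 429242 to 851247 reads. miR-3135-5p lay between 0.145% and 0.289%, miR-503-5p between 0.466% and 0.821%, and miR-7f-5p between 0.533% and 1.03%. The lowest share of miR-3135-5p rested on 6 shifted and 4143 unshifted reads in AB. That of miR-503-5p rested on 2 and 427 reads in HB. The shifted share thus spanned about the whole scale among miRNAs of high depth, and it was not a fixed feature of a library.

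**Figure D3:**
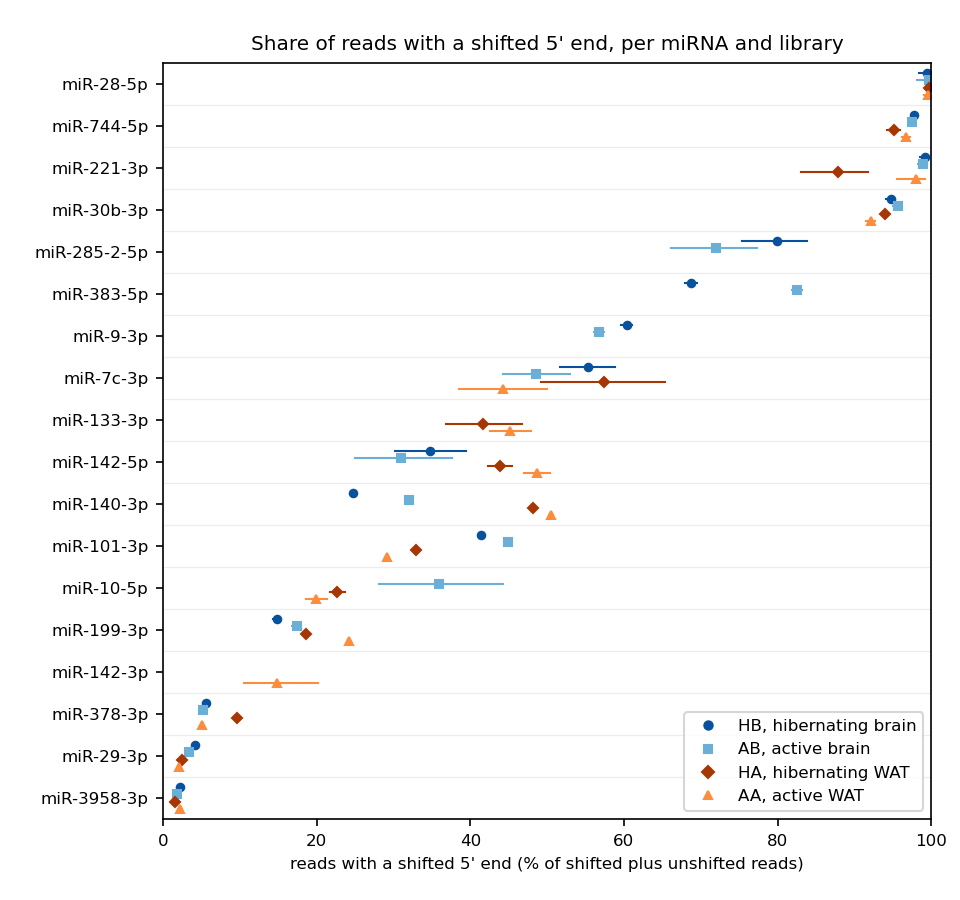
Percentage of shifted reads (x axis) of the miRNAs with the highest shares, the most shifted reads or known 5′ variants (y axis), with points for the 4 libraries and bars for exact 95% intervals. Libraries with under 100 reads of a miRNA are not drawn. miR-140-3p was higher in both WAT libraries and miR-101-3p in both brain libraries.

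The let-7 family was listed under the names miR-7a, 7b and 7d to 7g and represses growth genes. Its 5 members with 100 or more reads were all 5p arms, with the pair of miR-7b-5p and miR-7d-5p counted as 1 member. Their median share was 0.768% in HB and 0.842% in AB, against 0.794% in HA and 0.755% in AA, the highest member being 1.29%. The 3p arms had under 100 reads in each library. Over the 4 libraries their shares ranged from 0% (miR-7b-3p, 17 reads) to 54.6% (miR-7f-3p, 130 reads). None of the let-7 5p arms was called in any of the 4 contrasts below, and the 3p arms had too few reads to be compared. The nervous system list had 13 members with 100 or more reads in HB, with a median share of 2.33% in HB and 3.13% in AB, and 2 of them exceeded 10% in each. The list of fat and stroma miRNAs, measured by 10 members in HA and AA, had a median of 3.06% in HA and 2.74% in AA. Beside these lists, the medians over all conserved miRNAs were 3.67% in HB and 3.53% in AB, against 3.96% in HA and 3.11% in AA.

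The 3p arms had the higher medians. In HB the median share was 4.82% over 49 miRNAs of the 3p arm and 1.54% over 29 of the 5p arm. These medians were 4.99% and 1.29% in AB, 6.16% and 1.59% in HA, and 5.87% and 1.62% in AA. By first base, miRNAs listed with C had the highest median in each library except HA, with 15.02% in HB, 15.2% in AB and 10.7% in AA. In HA, where only 5 miRNAs were listed with G, their median of 8.65% exceeded the 8.27% of those listed with C. Bat-specific miRNAs had far higher medians, from 39.9% in HB to 45.8% in AB. Per the methods, the study kept the most represented length variant of a miRNA from these libraries, without limiting this to bat-specific ones, so the listed starts may not be independent of the reads counted here.

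The gained base was nearly fixed within a miRNA. Of 37 miRNAs with 100 or more gained reads, 27 had the same base in over 90% of them, and the median of the commonest base was 98.8%. Over these 37, the commonest base was C for 13, A for 12, G for 7 and T for 5. Only miR-22-3p and miR-7f-5p had no base above 50%, and miR-22-3p, outside the naming rule, is named after its values were seen. For miR-378-3p, whose shifted reads were mostly lost ones, the commonest gained base C had 50.2%. Whether the gained base lies next to the listed sequence in the genome was not tested, as no genome was used.

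Several shifted forms carried the seed of another listed miRNA. Of 182 shifted kinds (a miRNA with 1 kind of shift) with 10 or more reads, 8 had a seed equal to a listed seed. With 1 gained base, miR-30b-3p carried the seed TGGGAGA on 26970 reads, which is the listed seed of miR-30a-3p. That start held 93.3% of the aligned reads of miR-30b-3p, so this is the seed of its main form here rather than of a minor variant. The gained form of miR-381-3p, with 1414 reads, had the seed TATACAA of the 3p arms listed as miR-7a, miR-7d and miR-7e. The lost form of miR-151-3p (1062 reads) had the seed of miR-873-3p, that of miR-24-3p (944 reads) the seed of miR-222-5p, and that of miR-154-3p (871 reads) the seed of miR-485-3p. On under 100 reads each, the gained form of miR-218b-3p (76 reads) had the seed of miR-218a-3p, the lost form of miR-125-3p (49 reads) that of a bat-specific miRNA, and the gained form of miR-130-3p (23 reads) that of miR-148-3p. The other kinds with 10 or more reads led to seeds that no conserved or bat-specific miRNA in the list had. The miRNAs of this paragraph outside the naming rule were named after their values were seen.

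The 3′ ends differed between the starts. The mean 3′ end, as a base of the listed sequence, lay further 3′ in tags with 1 lost base than in unshifted tags for 42 of 46 miRNAs with 100 or more reads of both forms, with a median difference of 0.30 nt. With 1 gained base it lay less far 3′ for 35 of 36 miRNAs, with a median difference of -0.53 nt. In miR-101-3p, the mean end lay at base 20.6 in unshifted and at base 20.3 in gained tags, and in miR-140-3p at bases 21.6 and 20.9. The authors removed reads under 18 nt, so an 18 nt tag with 1 lost base ends at base 19 and one with 1 gained base at base 17. Among tags that reach base 20, which every counted start allows at 18 nt, 39 of 45 miRNAs still ended further 3′ with 1 lost base (median 0.21 nt), and 27 of 29 less far with 1 gained base (median -0.43 nt).

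Hibernation and activity were compared first in brain. A miRNA was compared where it had 100 or more reads in both libraries and 10 or more shifted reads in 1 of them, and it was called where the log2 odds ratio was 1 or more in size. Of 66 miRNAs, 3 were called higher and 1 lower in HB than in AB, and over all 85 listed miRNAs that could be compared, bat-specific ones included, 4.71% were called (3.53% higher and 1.18% lower). The median log2 odds ratio was 0.12, and the interval included 0 for 31 miRNAs. miR-383-5p was the lowest. It had 8427 shifted and 3835 unshifted reads in HB (68.7%, 67.9 to 69.5%) and 12229 and 2589 in AB (82.5%, 81.9 to 83.1%), a log2 odds ratio of -1.10 (-1.19 to -1.02). Its listed sequence has 18 nt, the unshifted tags ended on average at base 19.7 and those with 1 lost base at base 22.8. Among tags that reach base 20 the ratio was -0.73, and miR-383-5p was then not called.

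The 3 higher miRNAs in HB rested on few reads. miR-28-3p had 62 shifted of 687 reads in HB (9.02%) and 51 of 1186 in AB (4.30%), a log2 odds ratio of 1.14 (0.59 to 1.70). miR-486-5p, a miRNA of red blood cells, had 48 of 641 in HB (7.49%) and 68 of 1946 in AB (3.49%), mostly with 2 lost bases, a log2 odds ratio of 1.16 (0.61 to 1.71). miR-544-5p had 15 of 1123 and 3 of 660, a log2 odds ratio of 1.57 (-0.23 to 3.36), and this depth could not show a difference. Not called, but next to miR-383-5p at the lower end, miR-1298-5p had a share of 4.19% in HB (52 of 1241) and 7.61% in AB (63 of 828). miR-485-3p had 3.08% in HB and 5.21% in AB, a log2 odds ratio of -0.79 (-1.01 to -0.57).

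In WAT, 62 miRNAs were compared, of which 2 were called higher and 5 lower in HA than in AA, whereas 12.2% of 82 listed miRNAs were called (4.88% higher and 7.32% lower). The median log2 odds ratio was 0.02. miR-139-3p lies in an intron of the phosphodiesterase gene PDE2A. It had 664 shifted and 2534 unshifted reads in HA (20.8%, 19.4 to 22.2%) and 535 and 4888 in AA (9.87%, 9.08 to 10.7%), a log2 odds ratio of 1.26 (1.08 to 1.44). In RPM, its unshifted form was at 220 in HA and 427 in AA, and its shifted form at 57.5 and 46.8. Per clean read, the unshifted form was thus the one that was lower in HA. As given above for miR-140-3p, conserved miRNA reads were a smaller part of the clean reads in HA than in AA. Which form of miR-139-3p differed may therefore depend on the scale. In brain the same miRNA had 3.70% in HB and 5.05% in AB, a log2 odds ratio of -0.47 (-0.73 to -0.21).

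miR-185-5p had 7 gained and 237 unshifted reads in HA (2.87%, 1.16 to 5.82%) and 71 and 492 in AA (12.6%, 9.98 to 15.6%), a log2 odds ratio of -2.29 (-3.43 to -1.15). Its listed sequence also has 18 nt, and no lost form was seen in any library. Among tags that reach base 20, it had 0 shifted of 18 reads in HA and 0 of 29 in AA, too few to be compared, so this call rests on shorter tags. miR-221-3p had a log2 odds ratio of -2.72 (-4.02 to -1.43), resting on 29 and 6 unshifted reads. miR-125-3p (4 of 559 in HA and 27 of 1095 in AA), miR-365-3p (16 of 850 and 10 of 1366), miR-222-3p and miR-145-3p were the other called miRNAs. The whole interval lay beyond 1 in size for miR-139-3p, miR-185-5p and miR-221-3p, of which miR-139-3p and miR-221-3p were also called among tags that reach base 20.

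miR-378-3p, which lies in an intron of the coactivator gene PPARGC1B, lay just under the limit in WAT. Its shifted share was 5.59% in HB and 5.13% in AB, against 9.59% in HA (9.39 to 9.80%) and 5.10% (5.06 to 5.15%) in AA. HA stood apart, and the other libraries were close to each other. The log2 odds ratio of HA to AA was 0.98 (0.94 to 1.02), and nearly all shifted reads had 1 lost base. Expressed in RPM, the unshifted form was at 6189 in HA and 73173 in AA, and the shifted form at 657 and 3935. Both forms were thus lower in HA, with a ratio of HA to AA of 0.0846 for the unshifted form and 0.167 for the shifted form.

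**Figure D4:**
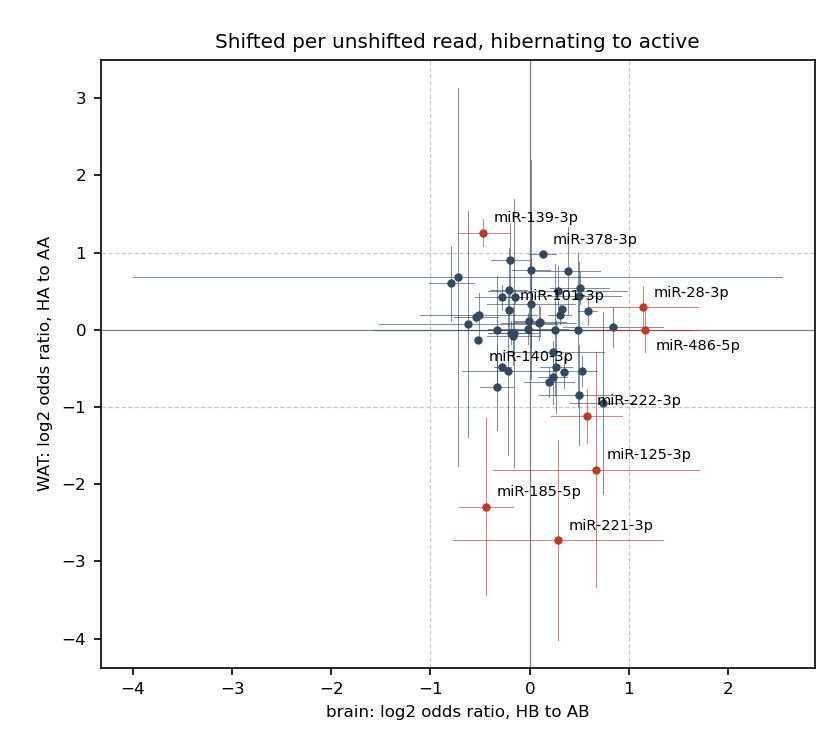
Log2 odds ratio of shifted per unshifted reads, hibernating to active, in brain (x axis) and in WAT (y axis) for the 50 miRNAs compared in both tissues. Bars are 95% counting intervals, dashed lines mark a size of 1 and red marks miRNAs called in either tissue. Most points lie within 1 of 0 on both axes, and miR-139-3p lies above 1 in WAT and below 0 in brain.

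Brain and WAT were then compared within each state. These contrasts share no library with each other, but each shares libraries with the contrasts of state. In hibernation, 10 of 55 miRNAs were called higher and 5 lower in HB than in HA, beside 26.7% of 75 listed miRNAs called (17.3% higher and 9.33% lower). In the active state, 3 of 56 were called higher and 5 lower in AB than in AA, beside 15.1% of 73 (5.48% higher and 9.59% lower). The shares of called miRNAs are near these backgrounds, but the backgrounds consist mostly of the same conserved miRNAs. They cannot show whether these differences are particular to conserved miRNAs. Of the 56 miRNAs with 100 or more reads in all libraries, the intervals of both brain libraries lay above those of both WAT libraries for 8, among them miR-101-3p, miR-29-3p, miR-185-5p, miR-486-5p and miR-744-5p. For 9 the intervals of both WAT libraries lay above, among them miR-140-3p, miR-199-3p, miR-139-3p, miR-142-5p, miR-129-3p and miR-7c-5p.

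The largest tissue difference below 0 was that of miR-139-3p, with a log2 odds ratio of -2.77 for HB to HA (-3.03 to -2.51) and -1.04 for AB to AA (-1.22 to -0.86). Neuronal miR-129-3p, which had 44568 reads in HB but 1776 in HA, had a share of 1.55% in HB and 1.78% in AB, against 4.62% in HA and 2.52% in AA. Its log2 odds ratio was -1.62 for HB to HA (-1.96 to -1.28). miR-485-3p had a share of 8.65% in HA on 775 reads, and a log2 odds ratio of -1.57 for HB to HA (-1.99 to -1.16). miR-7c-5p, the mature miR-7 that is known from neurons and endocrine cells, had a share of 1.07% in AB and 2.64% in AA, a log2 odds ratio of -1.33 (-1.76 to -0.90).

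Above 0, miR-221-3p had a log2 odds ratio of 3.98 for HB to HA (3.02 to 4.95), and miR-185-5p had 3.03 (1.92 to 4.14), with 19.4% shifted reads in HB against 2.87% in HA. miR-185-5p was also higher in AB than in AA, with 24.7% against 12.6% and a log2 odds ratio of 1.18 (0.79 to 1.57). Among tags that reach base 20 it had 4 shifted of 40 reads in HB and 6 of 91 in AB, so neither call of miR-185-5p between the tissues could be made there. miR-486-5p had a share of 7.49% in HB and 1.80% in HA, a log2 odds ratio of 2.14 (1.67 to 2.62), on 641 reads in HB. miR-744-5p, at over 95% in each library, had a log2 odds ratio of 1.21 for HB to HA (0.94 to 1.48), since its unshifted reads were 831 of 38098 in HB and 130 of 2650 in HA. In the active state, the highest values were those of miR-129-5p, at 1.69 (-1.22 to 4.61) on 17 and 1 shifted reads, which this depth could not tell from 0, of miR-185-5p, and of miR-10-5p, at 1.17 (0.66 to 1.67). miR-125-3p was the lowest, at -2.06 (-3.05 to -1.08).

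**Figure D5:**
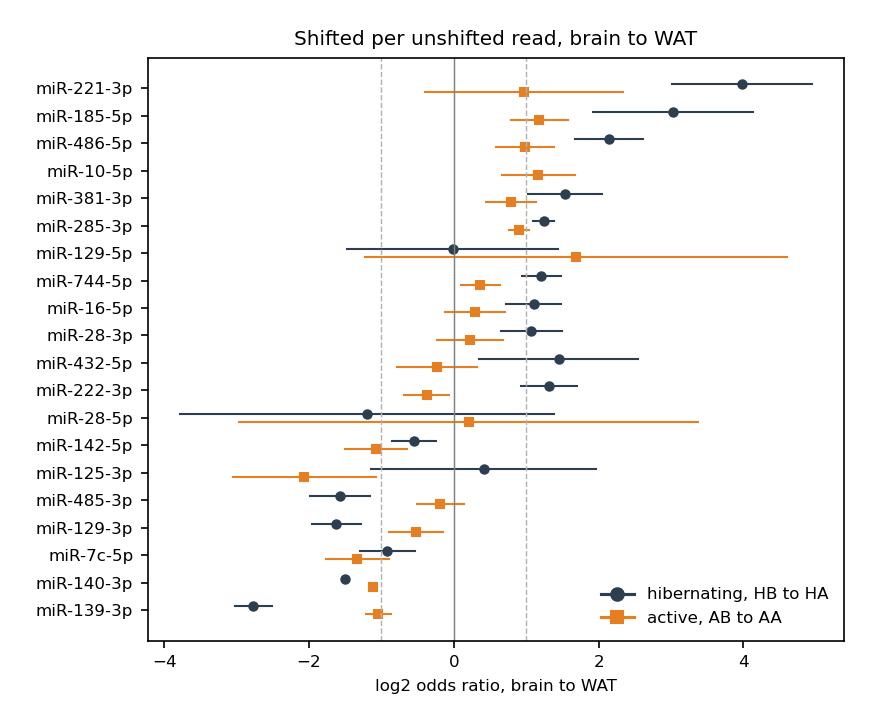
Log2 odds ratio of shifted per unshifted reads, brain to WAT (x axis), for the miRNAs called in either state (y axis), with 95% counting intervals. miR-140-3p and miR-139-3p lie below -1 in both states, whereas miR-221-3p and miR-185-5p lie above 1 in hibernation. Dashed lines mark a size of 1.

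The pairs left out by the rule were counted jointly. They held 8074915 reads, the most abundant being the let-7 pair of miR-7b-5p and miR-7d-5p and the pair of miR-124a-3p and miR-124b-3p, the defining miRNA of neurons. Of the reads of the miR-124 pair, 8.51% were shifted in HB (8.46 to 8.56%) and 5.94% in AB (5.90 to 5.99%), against 3.80% in HA (2.66 to 5.25%) and 6.43% (4.81 to 8.39%) in AA. The WAT values rest on 920 and 778 reads, against 1211342 and 1079666 in HB and AB. One gained base made up 7.47% of the reads in HB and 4.91% in AB. The log2 odds ratio was 0.56 for HB to AB (0.54 to 0.57) and -0.80 for HA to AA (-1.44 to -0.16), neither of them called. Between the tissues the pair was called higher in HB than in HA, at 1.23 (0.75 to 1.72), whereas the value for AB to AA was -0.12 (-0.53 to 0.29). The let-7 pair had a shifted share of 0.590% in HB and 0.600% in AB, against 0.752% in HA and 0.537% in AA. The pair of miR-218a-5p and miR-218b-5p had 55 shifted of 829 reads in HB and 15 of 453 in AB, a log2 odds ratio of 1.05 (0.21 to 1.89). The pair of miR-574a-5p and miR-574b-5p had 11 shifted of 850 reads in AA and under 100 reads in each of the other libraries.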

How the data were processed

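The authors sequenced gel-selected small RNA on an Illumina (Solexa) instrument. They took out adapter sequence, reads of low quality and those shorter than 18 nt, and the deposited files hold distinct tags of a library with their raw read counts, not normalized, in slightly lower numbers than the study gives. The tags were 18 to 30 nt long. The conserved mature sequences came from the list of 196 miRNAs in the study's supplement (119 conserved, 77 bat-specific). Per the methods, the authors kept tags that matched the Myotis lucifugus genome perfectly and compared them with miRBase with mismatches allowed. The deposited tags counted here were not filtered by a genome match. Unlisted family members with the same first bases are counted with a listed miRNA.

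Each library was 1 group, and counts entered as deposited. A tag was assigned on 16 bases without mismatches, counted from its first base. For the gained kind these 16 bases followed a first base that could be any base. The 61 tags (905 reads) that also fit a bat-specific miRNA were kept. Shares have exact Clopper-Pearson 95% intervals. Log2 odds ratios have normal (Woolf) 95% counting intervals, with a count of 0 set to a floor of 3 reads. The ratio is formed within a miRNA, so no library scaling enters. Counting and ratios were tested on simulated tags built from the listed sequences, with reads drawn independently. This checks the code only, since copies made by PCR and differences between animals were not simulated. Tables were made in Python 3.11.15 with pandas 2.3.3 and NumPy 2.4.6, intervals with SciPy 1.17.1, and plots with Matplotlib 3.10.9.

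Named were the 10 miRNAs with the highest mean share, the 10 with the most shifted reads, the 3 highest and 3 lowest ratios per contrast, the 5 lowest shares among miRNAs with 10000 or more reads, those over 50%, and those with known 5′ variants. Members and lists were chosen with earlier results of these data known.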

Additional observations from a re-analysis of the deposited data

Results flagged for a closer look

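For 12 of the 50 miRNAs compared between states in both tissues, the counting interval of the log2 odds ratio of hibernating to active lay on opposite sides of 0 in brain and WAT. With 1 library per group the difference between the tissues was not tested. The largest was that of miR-139-3p, where the brain ratio minus the WAT ratio was -1.73 (brain -0.47, WAT 1.26). It was 1.69 for miR-222-3p, which had shares of 1.73% in HB and 1.17% in AB, against 0.703% in HA and 1.51% in AA. It was -1.39 for miR-485-3p, 1.34 for miR-30a-3p, -1.10 for miR-129-3p and 1.07 for miR-7f-5p. Differences under 1 in size were 0.89 for miR-3958-3p, 0.84 for miR-744-5p, -0.70 for miR-1-3p, -0.70 for miR-30b-3p, -0.58 for miR-7e-5p and -0.46 for miR-101-3p. Among these miR-101-3p had the most reads, so its intervals were the narrowest, and an interval that covers counting error only can be passed by small differences at such depth. No group had enough libraries for a check of outlying samples.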

How the results depend on the processing

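No paired analysis was possible because each group has 1 library, and no replicate could be left out for the same reason. Pooled shares are given below in the order HB, AB, HA and AA. They were 11.1, 10.9, 12.95 and 12.01% with 18 bases matched, 10.5, 10.5, 12.4 and 11.6% with tags of 20 to 24 nt, 9.34, 9.01, 12.1 and 11.4% with the commonest start taken as unshifted, and 8.16, 7.21, 8.90 and 8.71% with the pairs joined. Without miR-101-3p they were 5.28, 5.28, 9.47 and 9.91%, so that AA then exceeded HA. With 14 bases matched they left the interval in AB (10.3%) and AA (11.6%) only. Chosen after seeing the data, only tags whose 3′ end lies at base 20 or beyond gave 10.2, 10.1, 12.2 and 11.5%, and the commonest gained base alone gave 10.5, 10.3, 12.4 and 11.6%. With each tag counted once, which gives rare tags the weight of abundant ones, the pooled shares were 30.1, 27.6, 27.4 and 29.1% and the medians 19.7, 21.1, 18.7 and 20.1%. Under the other alternatives the medians stayed within the order-statistic 95% intervals of the reported ones (2.20 to 7.49% in HB, 1.78 to 6.32% in AB, 1.87 to 7.36% in HA and 1.964 to 7.69% in AA).

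In the order HB to AB, HA to AA, HB to HA and AB to AA, the number of called miRNAs was 4, 7, 15 and 8. It was 1, 2, 8 and 4 with 1000 or more reads in both libraries and 1, 3, 9 and 2 with the whole interval beyond 1, since fewer miRNAs can then be called. It was 0, 1, 4 and 0 with each tag counted once, where 30, 30, 21 and 21 miRNAs could be compared in place of 66, 62, 55 and 56. It rose to 13 for AB to AA with tags of 2 or more reads and was 9 for HB to HA with 1 base lost only. For these settings the cause was not tested. In brain, miR-383-5p was the single call whose whole interval lay beyond 1, and it was not called among tags that reach base 20. In the other contrasts, miR-185-5p was the only called miRNA that was not called among those tags, where it had too few reads to be compared.

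Of 1028 ratios of named miRNAs that were recomputed, 889 stayed within the counting interval, 129 left it and 10 called ratios changed sign. With each tag counted once, miR-383-5p turned to 0.055 (HB to AB) and miR-139-3p to 0.24 (AB to AA). With 1 base gained only, miR-383-5p turned to 0.89 (HB to AB), miR-28-3p to -1.21 (HB to HA) and miR-7c-5p to 0.070 (AB to AA). With 1 base lost only, miR-140-3p turned to 0.30 (HB to HA) and 0.13 (AB to AA), miR-485-3p to 0.31 (HB to HA) and miR-142-5p to 0.45 (AB to AA). With tags of 2 or more reads, miR-129-5p turned to -0.45 (AB to AA). Apart from the weighting of tags, these settings count another form or fewer reads, and the cause was not tested. Depth limits the ratios of miRNAs with few shifted or few unshifted reads, such as miR-544-5p, miR-129-5p, miR-28-5p and miR-221-3p.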
